A study of Mus musculus with 3 samples.

Results

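The proteasome and immunoproteasome genes were followed in polyadenylated RNA from mouse regulatory T cells. Members were all genes with a protein_coding transcript whose symbol starts with Psma to Psmg followed by a digit. The pattern found 50 of the 55536 genes in the gene tables, which hold 22028 protein-coding genes. It also met 4 pseudogenes, which have no protein_coding transcript and were left out. Of the 50 members, 48 are subunits, caps, an inhibitor or assembly factors. The others are Psmc3ip, a recombination protein that matches by name only, and Psme2b, an intronless copy of Psme2.

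The cells were primary regulatory T cells of a male adult mouse aged 4 months, of strain Foxp3CreERT2 x Rosa26YFP. In this strain Foxp3-expressing cells carry a tamoxifen-inducible Cre and a Cre-dependent YFP reporter allele, and the labels give no treatment. The source label traces the cells to a hematopoietic cell of bone marrow. The 3 libraries are technical replicates 1, 2 and 3 of 1 biological replicate and are named by those numbers. They form 1 group, so there is no comparison between conditions, and every SD or p-value below measures only the spread between these libraries.

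The 26S proteasome is the protease that degrades ubiquitin-tagged proteins. Its 20S core stacks rings of alpha subunits, which gate the entrance, around rings of beta subunits, of which beta1, beta2 and beta5 cut peptide bonds. In lymphocytes and in cells exposed to interferon, the catalytic subunits Psmb6, Psmb7 and Psmb5 are replaced in newly built cores by Psmb9, Psmb10 and Psmb8, which gives the immunoproteasome and changes which peptides are cut for MHC class I. The 19S cap unfolds substrates, and the PA28 cap of Psme1 and Psme2 opens the core without ubiquitin.

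Library totals were 9299054, 9188612 and 8284381 expected counts for libraries 1, 2 and 3. Levels are given in TPM, the deposited length-scaled abundance of each gene. All 5 regulatory T cell markers were at 1 TPM or more in every library, with a summed level of 1605 to 1722 TPM, and so were all 4 T cell markers. Markers of other cells were present as well. All 5 B cell markers were detected, with sums of 116.3 to 192.2 TPM. Of the plasma cell markers 2 of 3 were detected (sums 13.06 to 120.2 TPM). The 5 erythroid markers, of which 3 were detected in every library, summed to 1681, 9.02 and 1495 TPM in libraries 1, 2 and 3. Detected markers numbered 2 of 2 for CD8 T cells (15.97 to 21.41 TPM), 3 of 5 for macrophages and monocytes (13.83 to 32.17 TPM), 1 of 4 for dendritic cells (2.71 to 4.31 TPM) and 1 of 2 for NK cells (2.79 to 4.11 TPM). None of the 4 neutrophil markers was detected in every library; their sums were 34.03, 0 and 2.59 TPM in libraries 1, 2 and 3, with Elane at 0 throughout.

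Proteasome RNA was abundant and nearly complete. Of the 50 members, 48 were detected, meaning at 1 TPM or more in every library, beside 45.9% of all protein-coding genes. In library 1 the members together held 72196 expected counts, or 0.776% of the total (95% Wilson interval 0.771 to 0.782). The share was 0.634% in library 2 (0.629 to 0.639) and 0.628% in library 3 (0.622 to 0.633). Summed over the members, the level was 8501 ± 376.6 TPM (SD, n = 3). The median member stood at 141.5 TPM, against 20.08 TPM for all detected protein-coding genes, and 31 members were at 100 TPM or more in every library.

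Both undetected members are subunits known from other tissues. Psma8, the alpha subunit of testis proteasomes, was at 0.15, 0 and 0.63 TPM, from 1, 0 and 4 counts. Psmb11, the beta5 subunit of cortical thymic epithelium, had no count in any library. A count of 0 allows up to 0.323, 0.327 and 0.362 CPM (counts scaled to library size) in libraries 1, 2 and 3. The second transcript quantification, made from the same reads against a transcript index, gave Psmb11 0.529, 0.891 and 1.16 TPM. Of the other thymic epithelium markers, Foxn1 was at 0 in all 3 libraries and Epcam at 1.5, 1.2 and 3.49 TPM. Of the germ cell markers, Sycp3 was at 0 in all 3, Dazl at 0.44, 0 and 0.06 TPM, and Ddx4 at 0.04 TPM in library 1 and 0 in the others.

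**Figure D1:**
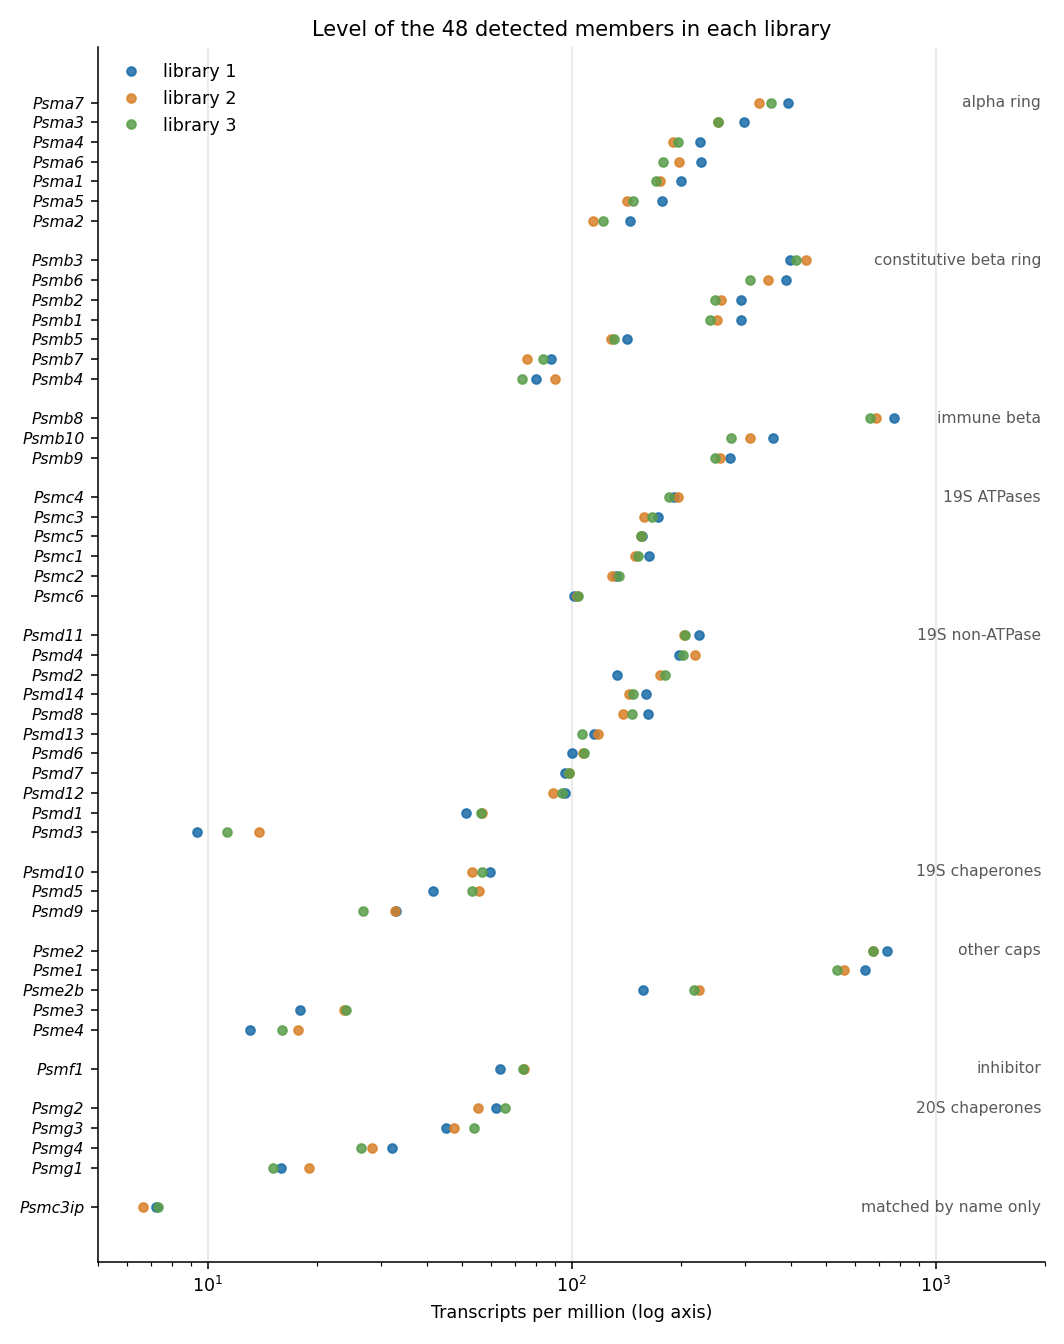
Level of the 48 detected members, in TPM on a log axis, with 1 point for each of the 3 libraries and members grouped by role. Psmb8, Psme2 and Psme1 lie highest, with means of 705.9, 693.9 and 579.2 TPM, and Psmd3 lies far below the other 19S subunits at a mean of 11.5 TPM.

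An immune catalytic subunit was among the most abundant member RNAs. Psmb8, the beta5i subunit that cuts after hydrophobic residues, was at 767.72, 688 and 661.84 TPM in libraries 1, 2 and 3, and its mean ranked 169 among all protein-coding genes. It did not separate from the cap gene Psme2 (705.9 ± 55.2 and 693.9 ± 35.8 TPM, SD, n = 3), and in the second quantification Psme2 was above it in every library. Its constitutive counterpart Psmb5 was at 141.81, 128.68 and 130.96 TPM. Every library had several times more Psmb8 than Psmb5 RNA, and the ranges do not overlap. The within-library ratio of Psmb8 to Psmb5 was 5.27 ± 0.19 (SD, n = 3).

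The beta2 position was similar in direction. Psmb10, the beta2i subunit, was at 356.73, 308.53 and 273.5 TPM, and Psmb7, the trypsin-like beta2 subunit, at 87.7, 75.24 and 83.26 TPM. The ratio of Psmb10 to Psmb7 was 3.82 ± 0.46 (SD, n = 3). At beta1 the order was the other way round. Psmb9, the beta1i subunit, was at 272.46, 255.85 and 247.95 TPM, below Psmb6, the caspase-like beta1 subunit, at 389.45, 346.4 and 309.76 TPM. Psmb6 was the higher of the pair in each library, and the ratio of Psmb9 to Psmb6 was 0.746 ± 0.051 (SD, n = 3).

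Expressed as shares, the immune subunit held 84.0% ± 0.5 of the RNA at beta5, 79.1% ± 2.1 at beta2 and 42.7% ± 1.7 at beta1 (SD, n = 3). Over the 3 catalytic positions together the immune share was 69.3%, 69.5% and 69.3% in libraries 1, 2 and 3. The totals of the pairs differed too: beta5 summed to 839.7 TPM, beta1 to 607.3 TPM and beta2 to 395.0 TPM. These are RNA levels; the incorporation of the proteins was not measured.

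**Figure D2:**
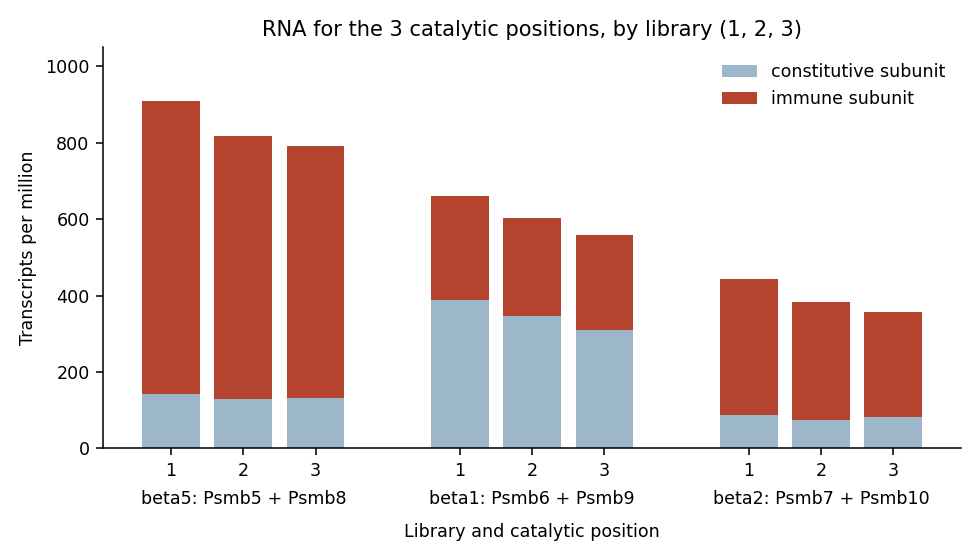
Stacked TPM of the constitutive and the immune subunit at each catalytic position, with 1 bar for each library and the axis starting at 0. The immune part makes up most of the beta5 and beta2 bars (84.0% and 79.1% on average) and 42.7% of the beta1 bars.

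The size of these ratios depended on which transcripts were counted, while their order was the same in each source of TPM. With protein_coding transcripts alone, the mean ratios were 3.51 at beta5, 2.09 at beta2 and 0.538 at beta1. The second quantification gave 4.79, 4.31 and 0.82. Part of each immune gene's level sat on annotated transcripts with a retained intron. Psmb8-205, a retained_intron transcript, held 31.2% ± 0.7 of Psmb8, and Psmb10-205, also retained_intron, held 31.3% ± 5.0 of Psmb10 (SD, n = 3). Psmb9 was split more widely, with 49.9% on the coding Psmb9-204, 12.1% on the retained_intron Psmb9-205 and 11.9% on Psmb9-207, a nonsense_mediated_decay transcript. Psmb5 had 99.8% of its level on Psmb5-201, Psmb7 99.0% on Psmb7-201 and Psmb6 87.4% on Psmb6-201. The retained_intron transcripts Psmb6-202 and Psmb6-204 held 6.52% and 4.78% of Psmb6. These shares depend on the annotation, which lists 2 transcripts each for Psmb5 and Psmb7, 4 for Psmb6 and 7 for each immune gene. Both transcripts of Psmb5 are protein_coding, so that gene could show no retained_intron share. Psmb9 also overlaps the peptide transporter gene Tap1 on the opposite strand by 212 bases, and 12.5% of the 50-base words of its leading transcript occur in Tap1 transcripts when both strands are read; whether the counting used strand is unknown here.

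The catalytic genes and their promoters were read for elements linked to their known regulators. RefSeq windows (GRCm38.p6) of 300 bases, 250 before to 50 after the start, were found for 42 of the 50 members, as 45 windows. Nfe2l1 raises constitutive proteasome genes when proteasomes fail. An element bound by Nfe2l1 and Nfe2l2 was searched as TGACNNNGC on both strands. It occurred in 13.3% of member windows and in 12.4% of all 32851 windows. The interferon regulatory factor motif, searched on both strands as GAAA, any 2 bases and GAAA again, was in 11.1% of member windows (5 of 45) and in 3.44% of all windows. Those 5 were at Psmb3, Psmd4, Psmd9, Psme1 and Psmg4, so the PA28 gene Psme1 was among them. The windows read for Psmb8 and Psmb9 held no match to this pattern, and whether Psmb10 had a window is not given here. The gamma-activated site TTCNNNGAA, an interferon-gamma response element, was in 6.67% and 8.3%, and the CCAAT box CCAAT in 33.3% and 37.4%. A match of letters is a description and not a site of binding.

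The 6 stretches below show 1 match each, 30 bases, 5′ to 3′ on the strand of the gene, with the match in capitals. They are shown because they place the elements at both constitutive catalytic genes that hold one, at Psmb8 and Psme1 among the interferon-inducible genes, at the assembly chaperone gene Psmd9 and at the structural subunit gene Psmb3. Coordinates are GRCm38.p6: Psmb5 chr14:54618023-54618052 (minus strand), Psmb6 chr11:70525338-70525367, Psmd9 chr5:123228149-123228178, Psmb8 chr17:34198088-34198117, Psme1 chr14:55578493-55578522 and Psmb3 chr11:97703261-97703290 (all plus strand).
Psmb5: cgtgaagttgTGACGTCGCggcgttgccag
Psmb6: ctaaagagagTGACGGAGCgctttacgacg
Psmd9: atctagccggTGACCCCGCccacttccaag
Psmb8: tcctccgctgTTCCCAGAAgatgccccccc
Psme1: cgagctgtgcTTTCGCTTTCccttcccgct
Psmb3: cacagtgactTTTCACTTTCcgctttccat
The capitals mark TGACNNNGC in Psmb5, Psmb6 and Psmd9, with the first base 47, 9 and 31 bases before the start, TTCNNNGAA in Psmb8, 97 bases before it, and the reverse complement of the spaced GAAA pair in Psme1, from base 10 of the transcript, and in Psmb3, 163 bases before the start. The Psmb5, Psmd9 and Psmb3 stretches lie outside the annotated exons of their genes, and the last base of the Psmb6 stretch is the first base of an exon of Psmb6-203. The Psmb8 stretch lies in an exon of the minor transcript Psmb8-201 (2.21% of the gene's TPM), and the Psme1 stretch in exons of 6 of its transcripts. Psmb9 held a CCAAT box match 8 bases before the start, and for Psmb10 no match was found. Not every member had a window, and whether Psmb10 had one is not given here.

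The alpha ring, which forms the gate of the core, was expressed as a set. Its 7 genes had a median of 200.6 TPM and spanned 2.82-fold. Psma7 was highest, at 392.62, 328.3 and 353.91 TPM in the 3 libraries. Psma2 was lowest, at 144.53, 114.55 and 122.37 TPM. All Psma7 values lie above all Psma2 values, and Psma4, Psma6 and Psma1, in between, overlap one another.

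Psma3 needs separate mention because of a copy elsewhere in the genome. It was chosen after its values were seen. Psma3 itself was at 298.26, 252.16 and 252.11 TPM, and the processed pseudogene Gm13835 on chromosome 6 was at 222.4, 183.4 and 163.8 TPM. Of the 50-base words in the leading transcript of Psma3, 78.5% occur in Gm13835. The pseudogene took 41.4% ± 1.8 (SD, n = 3) of their joint level in the gene tables and 18.2%, 9.54% and 12.6% in the second quantification. How the joint 457.4 TPM divides between the gene and the copy is therefore uncertain.

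Constitutive beta ring genes were more unequal, spanning 5.16-fold around a median of 260.8 TPM. Psmb3, a structural subunit, was highest at 397.87, 440.83 and 414.15 TPM. Psmb4, also structural, was lowest at 79.72, 90 and 73.31 TPM. Psmb7 lay at the level of Psmb4, and these neighbours did not differ beyond their spread (means 82.07 ± 6.32 and 81.01 ± 8.42 TPM, SD, n = 3). Psmb4 was split between the coding Psmb4-201 (53.1%) and the retained_intron Psmb4-202 (45.6%). Psmb1, the structural subunit with the largest count among the constitutive beta genes, was at 291.52, 250.25 and 240.71 TPM. Psmb3 shares 39.9% of its 50-base words with the pseudogene AC114990.1 and Psmb5 49.4% of its own with Gm3375, both of which were listed at 4.15 TPM or less in every library.

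Among the regulatory caps, the ATPases of the 19S base, which unfold the substrate, were close in level. The 6 genes spanned 1.85-fold around a median of 155.4 TPM. Psmc4 was highest at 191.28, 196.72 and 184.86 TPM, and Psmc6 lowest at 101.58, 103.82 and 104.28 TPM. The SD over libraries was 5.94 and 1.44 TPM for these genes, far smaller than the distance between them.

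The 11 non-ATPase subunits of the 19S cap had a median of 113.6 TPM. Psmd11, a scaffold subunit of the lid, had the highest mean, at 224.23, 203.81 and 204.37 TPM. Psmd14, the deubiquitinase that removes the ubiquitin chain, averaged 150.2 TPM. Psmd4, a ubiquitin receptor, averaged 205.7 ± 11.3 TPM and did not differ from Psmd11 beyond the spread (210.8 ± 11.6 TPM, SD, n = 3). Psmd3, also a lid subunit, stood apart at 9.36, 13.85 and 11.29 TPM, from 150, 196 and 147 counts. The next lowest of the 11 was Psmd1, a scaffold of the base, with a mean of 54.76 TPM. In the second quantification Psmd3 was again lowest, at 4.71, 8.10 and 5.87 TPM, so both methods gave it a low value. No 50-base word of its leading transcript occurs in another gene.

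The chaperones that assemble the 19S base were lower. Psmd10 was at 59.63, 53.34 and 56.77 TPM and Psmd9 at 32.91, 32.75 and 26.74 TPM, around a median of 50.26 TPM for the 3 genes. The 20S assembly chaperones were lower still, with a median of 38.97 TPM. Psmg2 was at 61.99, 55.44 and 65.77 TPM, and its partner Psmg1 at 15.96, 19.06 and 15.14 TPM. Psmg2 was above Psmg1 in every library. Psmg3 was at 45.27, 47.6 and 53.93 TPM. Psmf1, an inhibitor of the core, was at 63.79, 73.99 and 73.53 TPM.

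Of the caps that replace 19S, PA28 alpha-beta dominated. Psme1 was at 639.97, 560.98 and 536.61 TPM and Psme2 at 735.25, 673.47 and 673.11 TPM. These interferon-inducible chains were close to each other, with a within-library ratio of Psme1 to Psme2 of 0.834 ± 0.037 (SD, n = 3). The second quantification gave a lower ratio, 0.473. PA28 gamma, encoded by Psme3 and found in the nucleus, was at 17.93, 23.68 and 24.04 TPM. PA200, encoded by Psme4, was at 13.12, 17.73 and 15.97 TPM. The within-library ratio of Psme1 to Psme3 was 27.2 ± 7.4 (SD, n = 3), and their ranges are far apart.

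Psme2b, named after its values were seen, was at 157.6, 223.65 and 217.22 TPM, a level similar to that of core subunits. It is a copy of Psme2 on chromosome 11 (mm10 chr11:48945354-48946190) and 68.7% of its 50-base words occur in Psme2, so reads from either gene can be assigned to the other. It was lowest in library 1, where Psme2 was highest. The sum of the pair was nearly flat in the TPM of the gene tables, at 892.9, 897.1 and 890.3. It was not flat on other scales. Psme2 was at 388.1, 292.8 and 284.1 CPM and Psme2b at 90.59, 110.6 and 107.5 CPM. The second quantification gave Psme2 710.4, 620.1 and 579.5 TPM and Psme2b 68.74, 118.9 and 112.7 TPM. On both of these scales the pair together was highest in library 1. Within the annotation, the same-strand gene Gm12185 spans all of Psme2b and was at 4.79, 6.28 and 6.57 TPM. The gene 9930111J21Rik1, also on that strand, overlaps the first 41 bases of Psme2b, and it too was lowest in library 1, at 97.99, 211.99 and 215.95 TPM. The relation of these values was not tested.

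The libraries differed from each other in proteasome counts by more than counting error. A chi-square test of homogeneity compared each gene's rounded expected counts with TMM-scaled library totals, with Benjamini-Hochberg adjustment over all 13071 genes with 30 or more counts. Of 48 members tested, 41 passed at 0.05 (85.4%), and 54.3% of all tested genes did. With library 1 highest in scaled counts, 40 of the 48 passed (83.3%), beside 23.9% of all tested genes. Past a larger spread the order was the other way round: 7 of 48 members (14.6%) passed with a highest scaled count at least 1.5 times the lowest, beside 25.1% of all tested genes. Member RNAs are abundant, which makes small differences testable. Among genes with 3000 or more counts, all 29 members passed beside 89.1% of such genes, and 28 were highest in library 1 beside 46.2%.

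The 5 members with the largest test values were Psmb8, Psme1, Psmb1, Psme2 and Psmb10. Psmb8 had 5053, 3870 and 3362 counts in libraries 1, 2 and 3, and its highest scaled count was 1.43-fold its lowest (adjusted p = 2.04e-78, chi-square test). Psmb10 had 2351, 1689 and 1362 counts and a spread of 1.64-fold (adjusted p = 9.09e-59, chi-square test). For Psme1, Psme2 and Psmb1 the spread was 1.44-fold, 1.46-fold and 1.499-fold. In all 5, library 1 was high and libraries 2 and 3 lay nearer to each other.

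By role, all 7 alpha ring genes, all 7 constitutive beta genes, all 3 detected immune beta genes and all 6 ATPases passed with library 1 highest. This order is that of scaled counts and depended on the measure. In TPM, Psmb3, Psmb4, Psmc2, Psmc4 and Psmc6 were not highest in library 1. Psmb3 was lowest there, at 397.87, 440.83 and 414.15 TPM. Of the 11 non-ATPase subunits 10 passed, 9 with library 1 highest, and the exception in direction was Psmd2, a base scaffold, with 2870, 3174 and 2943 counts (adjusted p = 0.0335, chi-square test). Its spread was 1.08-fold, and its highest scaled count was in library 3. Psmd3, Psme2b, Psme3, Psmf1, Psmg1, Psmg3 and Psmc3ip did not pass. Psme3 had 343, 398 and 353 counts (adjusted p = 0.579, chi-square test). With only 1 biological replicate, these tests compare libraries and say nothing of animals.

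With library 1 left out, no member passed. Between libraries 2 and 3 the chi-square test called 0 of 48 members, beside 17.5% of all genes tested, and 9 of 48 had an unadjusted p under 0.05, beside 29.3% of all genes. The log2 difference of library 3 from library 2 ranged from -0.35 for Psmg1 to 0.29 for Psme4, with a median of 0.02.

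Library 1 was also high in short genes generally. Among all tested protein-coding genes, the decile of shortest genes (median 828 bases) deviated in library 1 by 0.34 in log2 scaled counts from the mean over libraries, and the decile of longest genes (median 5651 bases) by -0.21. The members' median in library 1 was 0.28. Their deviation fell with gene length (Spearman's rho -0.39 over 48 members and -0.55 over 10896 genes, which share the same libraries). After scaling within 20 bins of gene length, 30 of 48 members passed beside 44.7% of all genes, and 28 of the 48 passed with library 1 highest beside 18.9% of all genes. The exceptions, Psmb3 and Psme2b, passed with library 1 lowest. Their deviations there were -0.195 (adjusted p = 9.78e-10, chi-square test) and -0.435 (adjusted p = 2.17e-24, chi-square test). After this scaling the members' median deviation in library 1 was 0.10. All 7 alpha ring genes were among the 30, and none of the 4 20S chaperones. The summed neutrophil (34.03, 0 and 2.59 TPM), plasma cell (120.2, 13.06 and 93.76 TPM), erythroid, germ cell and T cell markers (6281, 5929 and 5437 TPM) were highest in library 1 too. Of the T cell markers, Cd3g and Trac were highest in library 1 in TPM, and Cd3e and Cd4 in library 2. Cd4 was lowest in library 1, at 360.5, 511.24 and 491.87 TPM. The germ cell sum was near 0 (0.48, 0 and 0.06 TPM), from 1 count each of Dazl and Ddx4 in library 1. Plasma cell and erythroid markers were also far higher in library 3 than in library 2. Sums for B cells (148.8, 116.3 and 192.2 TPM), CD8 T cells, macrophages and monocytes, dendritic cells, NK cells and thymic epithelium were highest in library 3. The regulatory T cell sum was highest in library 2. The part of these markers in the result was not tested.

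**Figure D3:**
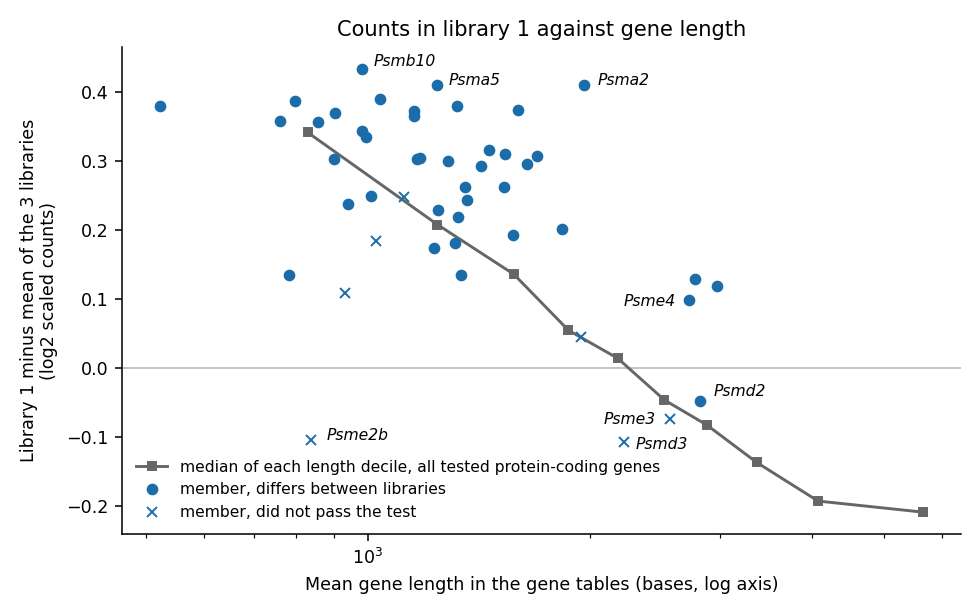
Deviation of library 1 from the mean of the 3 libraries (log2 scaled counts) against gene length in bases on a log axis, for the 48 tested members and, as squares, the medians of length deciles of all tested protein-coding genes. Most members lie above 0, at a median of 0.28, while the squares fall from 0.34 to -0.21 with length.

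Transcript use also varied among members. Of the 48 detected members, 26 had 90% or more of their TPM on protein_coding transcripts in every library, beside 38.4% of all detected protein-coding genes. Under 70% in every library were 10 members, beside 24% of those genes. Psmc3ip alone was led by another type, the retained_intron Psmc3ip-202, beside 13.3% of all detected protein-coding genes. Its level was low, at 7.24, 6.63 and 7.3 TPM, and the coding Psmc3ip-201 held 37.4% of it. The second quantification had 5 members led by another type, namely Psma3, Psmb4, Psmb9, Psme4 and Psmc3ip. In the first, Psme4 had 36.3% on the coding Psme4-201 and 32.7% on the short processed_transcript Psme4-205.

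**Figure D4:**
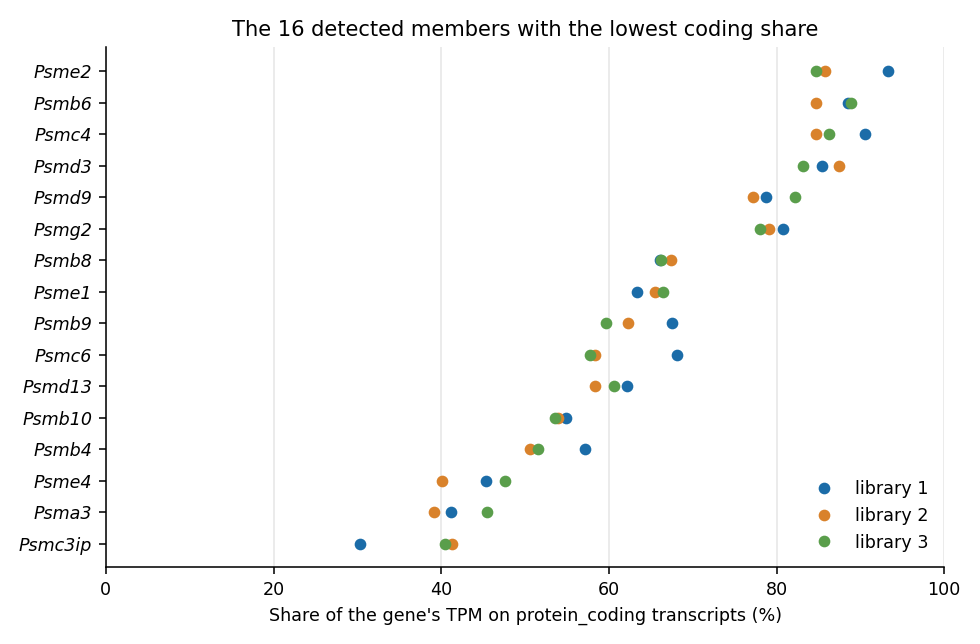
Share of TPM on protein_coding transcripts, in percent, for the 16 detected members with the lowest share and with 1 point for each library. Psmc3ip, Psma3 and Psme4 lie lowest, and the immune subunits Psmb8, Psmb9 and Psmb10 lie under 70% in every library.

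The deposited whole-number counts, made with the older GENCODE M4 annotation, placed members higher than the main gene table did. After centring on all genes, the median log2 difference over 48 members was 0.54. Past a fold of 2 in every library were 2 members, beside 13.8% of all genes compared. Both were lower in the M4 table: Psmg3, with log2 differences of -1.62, -1.51 and -1.87, and Psme3, with -1.12, -1.21 and -1.004. Psmg3 overlaps a same-strand gene, Gm26938, by 2816 bases in the M21 annotation, and Gm26938 was listed at 0 TPM. For Psme3, no overlapping gene was annotated.

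Genes that work with the proteasome were highest in different libraries; the counts below stand beside 54.3% of all tested genes that passed. All 9 measured of 10 other parts and partners were detected, and 6 passed the chi-square test, 5 of them highest in library 1; Paaf1 was not analysed here. Pomp, the maturation factor of the core, was at 214.49, 141.38 and 200.41 TPM, and Adrm1, the ubiquitin receptor of the cap, at 76.19, 90.78 and 88.5 TPM. All 11 genes of ubiquitin supply and delivery were detected and 9 passed, 7 highest in library 1 and 2 in library 2. Of these 11, 7 had 3000 or more counts. Among all genes with as many, 89.1% passed and 46.2% passed with library 1 highest. The polyubiquitin gene Ubb averaged 6062 TPM.

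All 4 transcription control genes were detected, and 3 passed, 1 highest in library 1 and 2 in library 3. Nfe2l1, which drives constitutive proteasome genes, was lowest in library 1, at 9.29, 20.6 and 22.99 TPM. In scaled counts, 40 of 48 members passed with library 1 highest, beside 23.9% of all tested genes. Summed TPM was highest there over all members (8926, 8370 and 8208) but lowest there over the 19S non-ATPase subunits (1344, 1363 and 1357). The relation of Nfe2l1 to the members was not tested. Among genes of interferon and class I induction, Irf1, an activator of Psmb9, was at 300.03, 313.48 and 291.83 TPM. Nlrc5, a class I activator, was at 97.34, 168.7 and 178.61 TPM. All 7 peptide loading genes, each with 3000 or more counts, passed, beside the 89.1% given above for genes with as many; 3 were highest in library 1, 3 in library 2 and 1 in library 3; Tap1, the neighbour of Psmb9, was at 125.86, 187.92 and 165.36 TPM.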

How the data were processed

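Per the labels, polyadenylated RNA of 3 technical replicate libraries of mouse regulatory T cells was sequenced, after shearing to fragments in the size range 100 to 300. Per the file headers, the authors deposited expected counts and TPM per gene and the percent of TPM per transcript (GENCODE M21, mm10), and a second table of estimated counts and TPM per transcript. The deposited whole-number counts per gene use GENCODE M4. The aligner, quantifiers, counter and strand setting, not given in the sources used here, remain unnamed. Depth was 8284381 to 9299054 counts. Non-gene entries held 0.117% to 0.135% and were left out.

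Expected counts were rounded and scaled by TMM (edgeR 4.0.16, R 4.3.3). A chi-square test of homogeneity per gene (scipy 1.17.1), tested on simulated data, was adjusted by Benjamini-Hochberg at 0.05. Detection needed 1 TPM in every library, and group levels used log2(TPM + 1). Wilson intervals and the limit of 3 counts for a count of 0 cover counting error only. Overlapping genes and near-identical copies have uncertain counts. Members and lists were chosen with earlier results of these data known.

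Named with their value in every library were the catalytic subunits, the PA28 and PA200 genes, the highest and lowest member of each role, the members below 1 TPM, the 5 largest chi-square values, members led by a noncoding transcript and members that differ between gene tables. Alternatives were DESeq2 1.42.0 size factors, other count minimums, other tables and leaving out each library. The count over the list of interferon and class I induction genes is not reported here.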

Additional observations from a re-analysis of the deposited data

How the results depend on the processing

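The count of members that differ between libraries was 41 of 48, beside 54.3% of all tested genes. It was 41 with DESeq2 size factors, beside 54.3%, and 30 with scaling within length bins, beside 44.7%. Without a count minimum it was 38 of 49, beside 28.2% of all tested genes. At 100 counts it was 42, beside 62.6%, and with the M4 counts 45, beside 63.8%. Leaving out library 1, 2 or 3 gave 0, 39 and 40, beside 17.5%, 49% and 46.3% of all tested genes. Detection gave 48 at every TPM minimum and table tried except 49 with the posterior mean TPM, and 46 of 48 without Psmc3ip and Psme2b, an alternative chosen after seeing the data.

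The second quantification lies lower for all genes, by a median of -0.76 on the log2(TPM + 1) scale over 10109 genes. It moved the medians on that scale from 7.66 to 6.75 for the alpha ring, 8.03 to 7.04 for constitutive beta, 8.29 to 7.57 for immune beta, 7.29 to 6.32 for the ATPases, 6.84 to 6.06 for the non-ATPase subunits, 5.68 to 4.70 for the 19S chaperones, 7.65 to 6.66 for the other caps and 5.27 to 4.68 for the 20S chaperones. A pseudocount of 0.1 gave 5.24 for the last group.

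The ratio of Psmb8 to Psmb5 (5.27) was 4.79 in the second quantification, 3.51 over protein_coding transcripts and 8.20 in the M4 counts, a ratio not per length and chosen after seeing the data. For Psmb9 to Psmb6 (0.746) these were 0.82, 0.538 and 0.975, and for Psmb10 to Psmb7 (3.82) they were 4.31, 2.09 and 3.26. Members led by another transcript type numbered 1, and 5 in the second quantification; leaving out each library gave 0 to 2. Members that differ between gene tables numbered 2, beside 13.8% of all genes compared, and 21 at 1.5-fold, 19 of them higher in the M4 counts. The share of all genes past 1.5-fold is not given here, so the 21 cannot be set against other genes. The cause of these moves was not tested. No paired analysis was possible because all libraries form 1 group. One animal and 3 libraries limit every value here to technical spread.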
